A study of Mus musculus with 15 samples.

Results

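The genes described here encode the subunits of the receptors for glutamate, GABA and glycine in the mouse. They were chosen by symbol, with no use of their level: every gene whose symbol names it as a subunit of an AMPA (Gria), NMDA (Grin), kainate (Grik), delta (Grid) or metabotropic (Grm) glutamate receptor, a GABA-A (Gabr) or GABA-B (Gabbr) receptor or a glycine receptor (Glr) was taken. There were 52 such genes among the 57180 gene identifiers of the tables, and all 52 were found. They comprised 4 AMPA, 7 NMDA, 5 kainate, 2 delta and 8 metabotropic glutamate receptor genes, 16 GABA-A, 3 GABA-A rho and 2 GABA-B receptor genes, and 5 glycine receptor genes. RNA from the brain stem of C57BL/6 mice was sequenced as 15 libraries in 2 experiments. In the AMPK experiment, 3 libraries of neonatal WT pups and 3 of AMPKα2-/- littermates, which lack the α2 catalytic subunit of AMP-activated protein kinase, were made from ventilatory control center tissue. Mice of postnatal days 1 to 5 are named in the methods in general, with no age given for each library. In the Lmx1b experiment, 3 libraries each were made from WT, Lmx1b+/- and Lmx1b-/- embryos, Lmx1b being a LIM-homeodomain transcription factor of the dorsal and ventral hindbrain. Loss of both copies is lethal, so these groups are prenatal, and their embryonic day is not given in the sources used here. The sources used here name no tissue-specific driver for either mutation. How many animals went into a library is not given in the sources used here either, and p-values then measure the spread between these libraries.

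Fast excitatory transmission in the brainstem runs through AMPA, kainate and NMDA receptors, which are tetramers of glutamate-gated cation channels. An NMDA receptor needs the GluN1 subunit, encoded by Grin1, and takes its kinetics from the GluN2 subunit it is joined with. Fast inhibition runs through pentameric chloride channels, the GABA-A receptors and the glycine receptors, whereas the metabotropic glutamate receptors and the GABA-B receptor signal through G proteins. In rodents, GluN2B and GluN2D precede GluN2A and GluN2C, and the glycine receptor α2 subunit precedes α1, as the brainstem matures. Glutamate, GABA and glycine all act on the brainstem neurons that generate and shape breathing.

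Total counts lay between 291212 and 17384171 in the neonatal libraries and between 28833130 and 37441679 in the prenatal ones. Neonatal WT 2 and AMPKα2-/- 3 were the shallow libraries, with 291212 and 335986 counts, of which only 842 and 821 fell on the 52 receptor genes. A count of 0 there allows a level of up to 11.2 and 9.5 CPM, against at most 0.225 CPM in the other 13 libraries. CPM express a count relative to the library total, after TMM scaling over the 15 libraries, and a level of 3 counts was taken as the limit that a count of 0 allows, for counting error only. Defining neuronal genes were high throughout, with Snap25 at 1501 to 2028 CPM in the neonatal and 188 to 264 CPM in the prenatal libraries. Lmx1b itself stood at 0.783 to 1.34 CPM in Lmx1b-/-, against 9.14 to 21.2 CPM in WT, whereas the Lmx1b+/- libraries (10.7 to 28.2 CPM) overlapped WT. Prkaa2, which encodes AMPKα2, stood at 24.9, 29.9 and 33.2 CPM in neonatal WT, compared with 28.8, 25.7 and 12.7 CPM in AMPKα2-/-, so the counts over the whole gene did not separate these groups. Whether the deleted part of the gene is among the counted exons is not given in the sources used here. Neonatal WT 3 held skeletal muscle markers at a summed 721 CPM, against 3.17 to 7.17 CPM in the other 5 neonatal libraries.

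The receptor genes together took up 0.244 to 0.335% of the counts of a neonatal library and 0.28 to 0.486% of a prenatal one. For levels between genes, RPKM (CPM divided by the gene length in kb that the deposited RPKM imply) are used. In the neonatal libraries Glrb, the β subunit that anchors glycine receptors at the synapse, had the highest mean RPKM at 79.3, with a range of 64.3 to 89.9. It was followed by Gabbr1, the ligand-binding GABA-B subunit, at 54.3 (46.5 to 63.6). The ranges of these 2 genes did not overlap, whereas Gria1 (mean 29), Gabra3 (25.3) and Gria4 (24.4) overlapped each other. In the prenatal libraries Gabbr1 led at a mean of 54.6 RPKM (41 to 65.8). Gabra3, Glra2 and Grm3 were at means of 29.8, 27.4 and 26.3 RPKM, with ranges that overlapped each other and lay below that of Gabbr1.

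**Figure D1:**
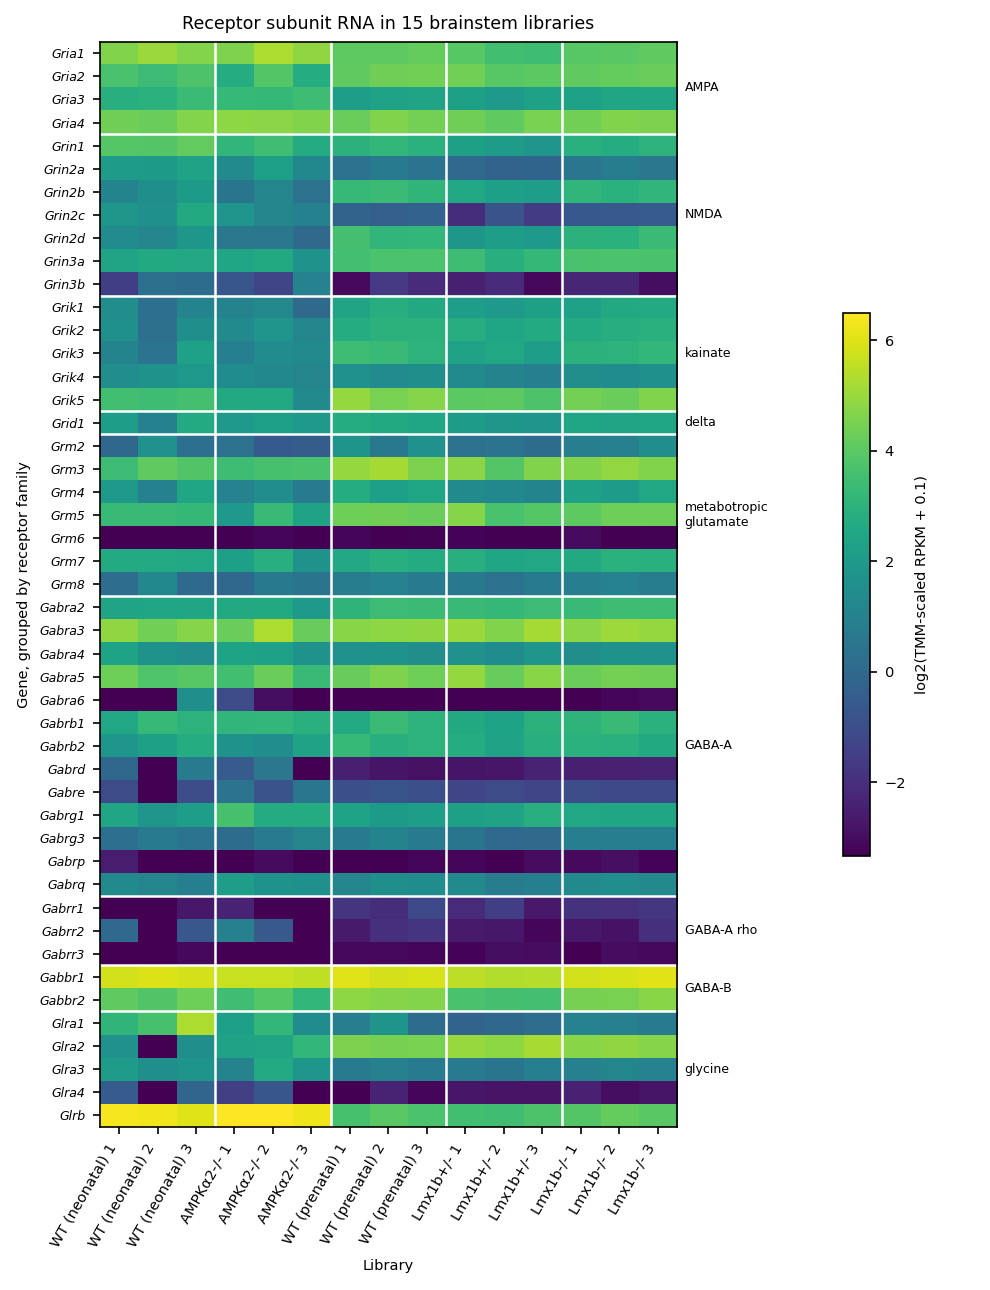
Levels of 47 receptor genes (rows, grouped by family) in the 15 libraries (columns, grouped by genotype), as log2 of the TMM-scaled RPKM plus 0.1. Glrb and Gabbr1 are the brightest rows in the neonatal columns, and Gabbr1 is the brightest in the prenatal ones. The GluN2 and glycine receptor α genes change between the neonatal and prenatal columns, and Grm6, Gabrp and Gabrr3 stay dark in every library.

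Several members were at or near the limit of detection. Grm6, the metabotropic receptor of retinal bipolar cells, and Gabrr3 and Gabrp were at 3 counts or fewer in all 6 neonatal libraries and in 8, 6 and 8 of the 9 prenatal ones. Gabra6, the α6 subunit that marks cerebellar granule cells, had counts of 0, 0 and 108 in neonatal WT and 13, 1 and 0 in AMPKα2-/-, and of at most 2 in any prenatal library. The 108 counts were 7.04 CPM in neonatal WT 3, which was also the library with the muscle markers. Gabrd, the δ subunit of extrasynaptic GABA-A receptors, stood at 2.61 and 4.37 CPM in the deeper neonatal WT libraries and at 1.8 and 4.04 CPM in the deeper AMPKα2-/- ones, against 0.106 to 0.279 CPM in the prenatal libraries. Of the rho subunits, Gabrr2 was at 1.94, 0 and 1.11 CPM in neonatal WT, compared with 3.82, 1.2 and 0 CPM in AMPKα2-/-. Its 9 prenatal values lay between 0.0279 and 0.381 CPM, and the prenatal values of Gabrr1 were 0.43, 0.324 and 0.804 CPM in WT, 0.3, 0.583 and 0.14 CPM in Lmx1b+/- and 0.386, 0.382 and 0.44 CPM in Lmx1b-/-.

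The WT libraries of both experiments were compared to ask how the receptor genes stand in neonatal and in prenatal brainstem. Glrb, Glra1, Grin2a and Grin2c were higher in the neonatal WT libraries, while Glra2, Grin2b, Grin2d and most kainate receptor genes were lower. A member was called where the edgeR quasi-likelihood test gave an adjusted p (Benjamini-Hochberg over all tested genes) under 0.05. Of the 45 members tested, 11 were higher in neonatal WT and 18 lower, and 16 were not called. Gabrb2 lost its call without neonatal WT 1 or prenatal WT 1, Gabrg3 without neonatal WT 1, prenatal WT 2 or prenatal WT 3, and Grin3b without neonatal WT 3 (log2 1.29 in place of 2.46). Among all 19679 genes tested, 24.3% were higher and 25.0% lower, so that the members' 11 of 45 lay near that share and their 18 of 45 above it. The median log2 difference was -0.28 over the members and -0.03 over all genes. Age, experiment and depth differ together between these groups and cannot be told apart. In these bulk samples fewer cells of a type and less RNA per cell cannot be told apart either.

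All 4 glycine receptor genes tested were called. Glra2, the α2 subunit of immature glycine receptors, stood at 74.3, 69.2 and 71.9 CPM in prenatal WT, compared with 9.41, 0 and 8.93 CPM in neonatal WT. The difference was 8.11-fold (log2 -3.02 ± 0.22 SE, edgeR adjusted p = 1.14e-08), with the 0 in the shallow library. Glra1, the adult α1 subunit, stood at 4.2, 7.88 and 2.45 CPM in prenatal WT, compared with 20.5, 29.9 and 93.5 CPM in neonatal WT. All 3 neonatal values lay above all prenatal ones, but neonatal WT 3 was over 3 times as high as the others, so the 11.1-fold difference (log2 3.48 ± 0.48) rested in part on it. Without that library the log2 difference was 2.16. Glrb stood at 57.8, 72.7 and 61 CPM in prenatal WT, compared with 379, 359 and 299 CPM in neonatal WT, a 5.26-fold difference (log2 2.39 ± 0.17, edgeR adjusted p = 1.31e-08). Glra3, another synaptic α subunit, was 2.2-fold higher, at 37.6, 26.2 and 30.5 CPM in neonatal WT against 14.1, 17 and 13.9 CPM. Within the summed RPKM of the 4 glycine receptor α genes, Glra2 made up 87.8, 80.8 and 90% in prenatal WT but 18.5, 0 and 6.21% in neonatal WT. Glra1 made up 6.48, 12 and 4.01% in prenatal WT and 52.4, 81.3 and 84.8% in neonatal WT. These shares depend on the gene lengths used. Of the summed CPM, without lengths, Glra1 held 29.8, 53.3 and 69.5% in neonatal WT and Glra3 54.7, 46.7 and 22.7%, so Glra3 led in neonatal WT 1. Glra2 held 80.2, 73.4 and 81.5% of the summed CPM in prenatal WT and 13.7, 0 and 6.64% in neonatal WT.

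The NMDA receptor genes also split by subunit. Grin1 stood at 76.5, 86.7 and 73.4 CPM in prenatal WT, compared with 145, 138 and 171 CPM in neonatal WT, a 1.92-fold difference (edgeR adjusted p = 0.000119). Grin2a rose from 21.2, 27.4 and 22.2 CPM in prenatal WT to 73.6, 71.1 and 88.4 CPM in neonatal WT, and Grin2c, the subunit known from cerebellar granule cells and glia, from 3.87, 3.44 and 3.74 CPM to 18.1, 15 and 31 CPM. These were differences of 3.33-fold and 6.4-fold. In the other direction, Grin2b fell from 237, 252 and 209 CPM to 50.9, 71.1 and 98.6 CPM, and Grin2d, the subunit of slow early receptors, from 79.9, 57.8 and 60.2 CPM to 16.9, 15 and 23.4 CPM. Both were over 3-fold lower in neonatal WT, by 3.17 and 3.33 times, and no neonatal WT value reached a prenatal one. Grin3a, a subunit that lowers calcium entry, was 2.24-fold lower, at 64.6, 74.8 and 74 CPM in neonatal WT against 145, 160 and 160 CPM. Of the summed RPKM of the 4 GluN2 genes, Grin2b and Grin2d held 40.6 to 48.2% and 41.3 to 51.1% in prenatal WT. In neonatal WT the same shares of RPKM were 26.6 to 33.4% for Grin2a, 16.7 to 23.8% for Grin2b, 24.7 to 33.1% for Grin2c and 18.7 to 20.7% for Grin2d. The shares depend on the gene lengths used: of the summed CPM, without lengths, Grin2a held 36.6 to 46.2%, Grin2b 31.9 to 41.3%, Grin2c 8.7 to 12.8% and Grin2d 8.7 to 10.6% in neonatal WT, and Grin2b held 69.3 to 74% in prenatal WT.

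**Figure D2:**
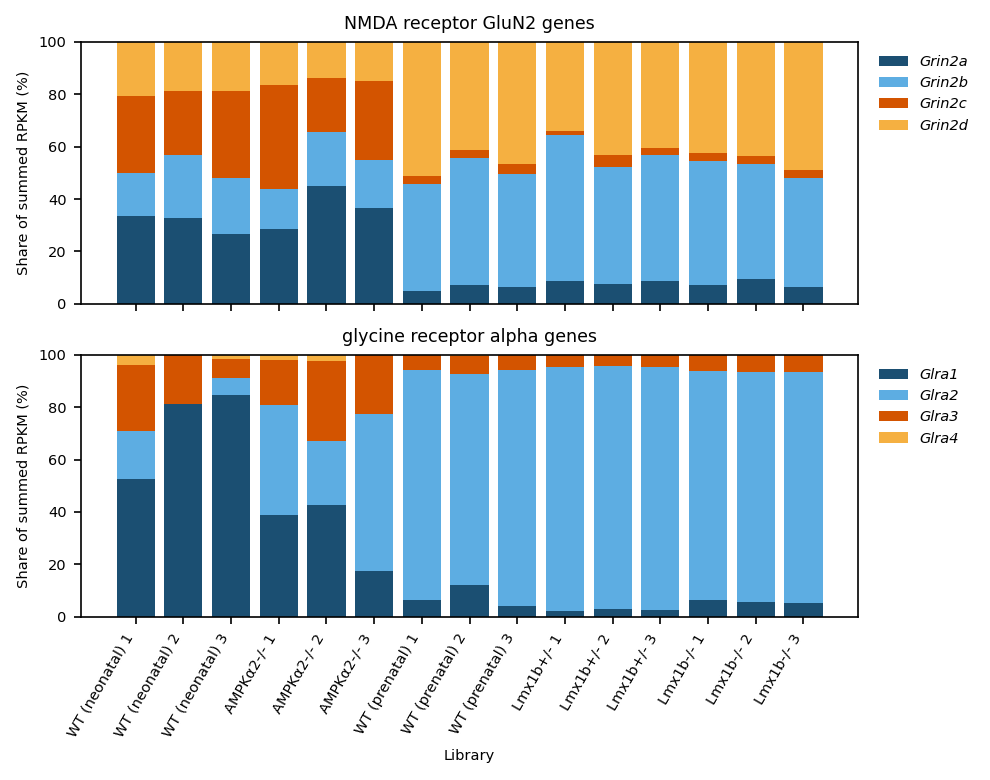
Share of each subunit gene in the summed TMM-scaled RPKM of its group (%, stacked bars) in each of the 15 libraries, for the GluN2 and glycine receptor α genes. Grin2d and Grin2b fill most of the GluN2 bar and Glra2 most of the glycine receptor bar in the 9 prenatal libraries, whereas Grin2a, Grin2c and Glra1 take up more of them in the 6 neonatal libraries.

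The GABA-A α genes differed less. Gabra2 was 1.83-fold lower in neonatal WT, at 39.6, 41.2 and 41.4 CPM against 63.6, 79.6 and 77.1 CPM in prenatal WT (edgeR adjusted p = 0.000296). Gabra3 stood at 114, 82.3 and 102 CPM in neonatal WT, compared with 105, 110 and 114 CPM in prenatal WT, and was not called. It held the largest part of the summed α RPKM in every WT library, at 32.7 to 43.1%. This share depends on the gene lengths used: of the summed CPM it held 24.4% in neonatal WT 2, less than another α gene. Gabrb2, a β subunit, was 1.63-fold lower in neonatal WT. The GABA-B subunits parted: Gabbr1 had a log2 difference of -0.07 with a 95% interval of -0.42 to 0.28, whereas Gabbr2 was 1.51-fold lower (log2 -0.59 ± 0.17).

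Among the other glutamate receptors, Grik1, Grik2, Grik3 and Grik5 were lower in neonatal WT, by 2.3 to 2.97 times, and only Grik4 of the kainate receptor genes was not called. Gria2, the subunit that makes AMPA receptors calcium-impermeable, was 1.6-fold lower at 196, 165 and 208 CPM against 265, 318 and 328 CPM. Gria1 and Gria3 were higher, by 1.52 and 1.72 times, and Gria4 stood at 129, 123 and 161 CPM against 119, 154 and 138 CPM. Of the metabotropic receptor genes Grm2, Grm3, Grm5 and Grm8 were lower and none was higher. Markers of other cells differed between these groups as well: the 7 oligodendrocyte markers summed to 12709 to 22349 CPM in neonatal WT against 232 to 276 CPM, and the 7 astrocyte markers to 4955 to 6961 CPM against 1169 to 1645 CPM. The 7 neural progenitor markers summed to 78.6 to 197 CPM against 488 to 554 CPM. Their part in the receptor differences was not tested.

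Loss of 1 copy of Lmx1b was compared with WT in prenatal brainstem to ask which receptor genes differed in the heterozygous embryos. NMDA, kainate and GABA-B receptor genes were lower in Lmx1b+/-, with Gabbr2, Grin2d, Grin2c and Grm4 down by 2.14 to 2.49 times. Glra2 was among the members that rose. Of the 46 members tested, 20 were lower, 2 were higher and 24 were not called, and 26 had an unadjusted p under 0.05. Over all 21729 genes tested, 17.3% were lower and 19.4% higher, and 46.1% had an unadjusted p under 0.05. The groups did not overlap for 20 members that lay below WT and for 1 that lay above, against 24.1% below and 21.9% above over all genes tested. All 25 glutamate receptor genes tested had a negative log2 difference, and 16 of them were called, while 7 of 13 GABA-A genes were negative and 6 positive, of which 1 was called in each direction. The 25 of 25 also held with RLE size factors and with library size alone. Library size alone moved the median of all genes to -0.27, and with it 10 of the 13 GABA-A genes were negative and the calls were 30 lower and 0 higher. The median log2 difference was -0.46 over the glutamate receptor genes, -0.23 over the GABA and glycine receptor genes and -0.03 over all genes.

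The obligate and shared subunits came first by p-value. Gabbr2 (ENSMUSG00000039809), the GABA-B subunit that couples to the G protein, stood at 188, 172 and 170 CPM in WT, compared with 83.6, 80.1 and 78.8 CPM in Lmx1b+/-. Its values in Lmx1b-/- were 148, 152 and 177 CPM. The libraries of Lmx1b+/- lay close together and far under every other library, a 2.14-fold difference from WT (log2 -1.10 ± 0.10, 95% interval -1.31 to -0.89, edgeR adjusted p = 6.24e-06). Its partner Gabbr1 (ENSMUSG00000024462) fell less, from 502, 444 and 458 CPM to 355, 319 and 329 CPM, a 1.37-fold difference (edgeR adjusted p = 0.0052). In Lmx1b-/- Gabbr1 stood at 442, 458 and 511 CPM, which spanned the WT range and reached slightly beyond it at both ends.

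All 7 NMDA receptor genes had a negative log2 difference and 6 were called. Grin1 (ENSMUSG00000026959) stood at 76.5, 86.7 and 73.4 CPM in WT, at 44.8, 39.6 and 32.4 CPM in Lmx1b+/- and at 71.5, 64.7 and 78.2 CPM in Lmx1b-/-. The heterozygous libraries were all lower than those of the other genotypes, 1.98-fold under WT (log2 -0.99 ± 0.13, edgeR adjusted p = 7.22e-05). Grin2d (ENSMUSG00000002771) stood at 79.9, 57.8 and 60.2 CPM in WT, at 23.8, 29.1 and 24.8 CPM in Lmx1b+/- and at 52.7, 50.3 and 68 CPM in Lmx1b-/-. This was the NMDA receptor gene with the lowest adjusted p, 2.49-fold lower (log2 -1.32 ± 0.15, edgeR adjusted p = 3.19e-05). Grin2b (ENSMUSG00000030209), the main GluN2 gene of the embryo beside Grin2d, stood at 237, 252 and 209 CPM in WT, at 145, 112 and 109 CPM in Lmx1b+/- and at 218, 189 and 214 CPM in Lmx1b-/-. Grin2a stood at 21.2, 27.4 and 22.2 CPM in WT, at 16.5, 13.6 and 14.2 CPM in Lmx1b+/- and at 24, 29.9 and 24.5 CPM in Lmx1b-/-. For both genes the Lmx1b+/- libraries lay below all others, by 1.87 and 1.56 times against WT. Grin2c was low in all embryos, at 3.87, 3.44 and 3.74 CPM in WT and 0.734, 2.36 and 1.2 CPM in Lmx1b+/-, with 2.79, 2.84 and 3.11 CPM in Lmx1b-/-. Grin3a stood at 145, 160 and 160 CPM in WT, at 133, 87.9 and 113 CPM in Lmx1b+/- and at 156, 159 and 153 CPM in Lmx1b-/-, a smaller difference of 1.37 times from WT. Grin3b was the member not called, at 0.0558 to 0.681 CPM over the 9 libraries. Since the GluN2 genes fell together, their shares moved little: Grin2b held 44.6 to 55.7% of the GluN2 RPKM in Lmx1b+/- and Grin2d 34.1 to 43.2%, against 40.6 to 48.2% and 41.3 to 51.1% in WT.

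**Figure D3:**
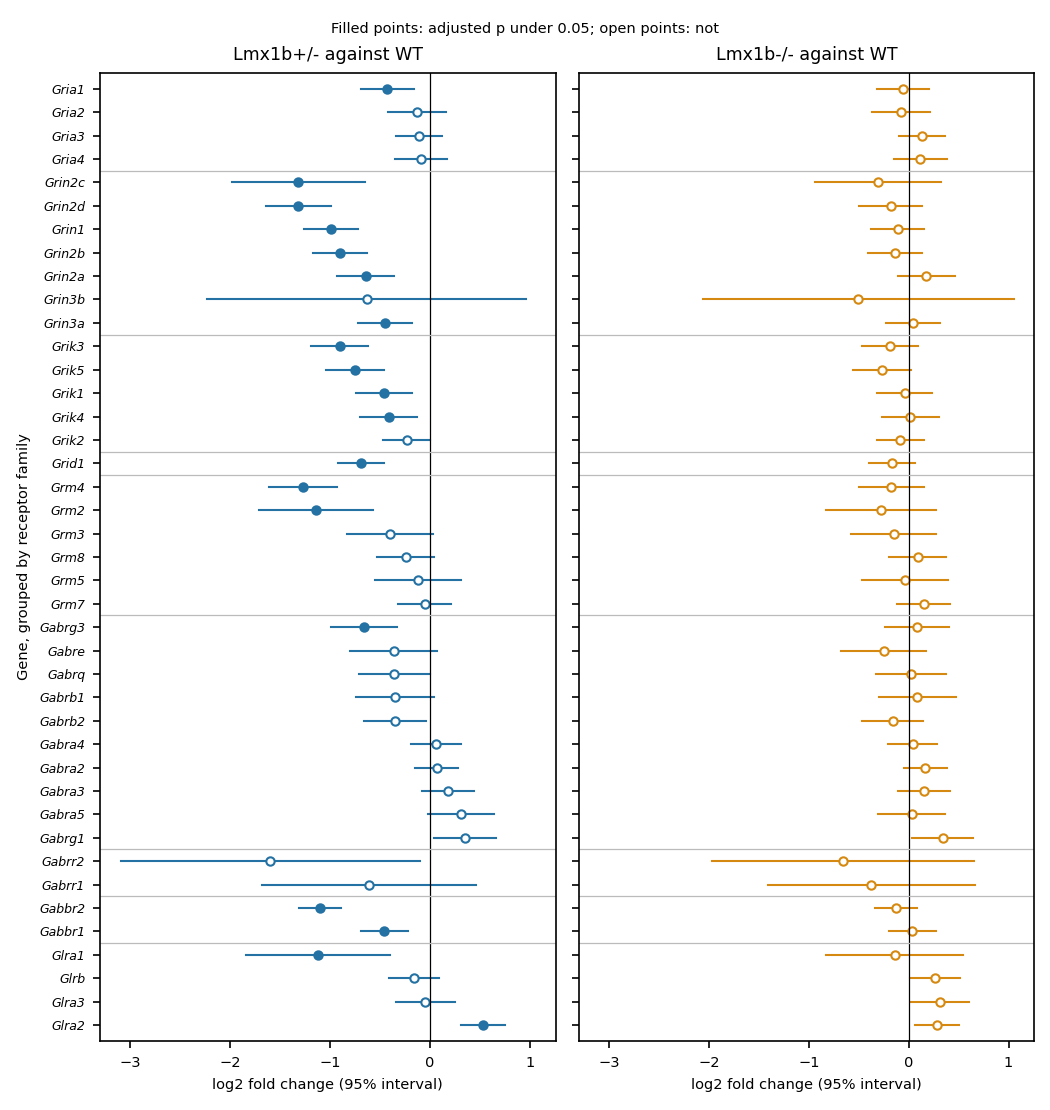
log2 fold changes (x axis) with 95% intervals of 41 tested receptor genes (y axis, grouped by family) in Lmx1b+/- against WT and in Lmx1b-/- against WT, from the edgeR fit of the 9 prenatal libraries. Filled points, adjusted p under 0.05, number 19 in the heterozygous panel and 0 in the null panel, and every glutamate receptor gene shown lies left of 0 in the heterozygous panel.

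Of the kainate receptor genes, whose products act at both sides of the synapse, 4 of 5 were lower in Lmx1b+/-. Grik3 stood at 98.2, 88.9 and 72 CPM in WT, at 43.8, 51.6 and 39.9 CPM in Lmx1b+/- and at 70.6, 71.5 and 80.9 CPM in Lmx1b-/-. Grik5 (ENSMUSG00000003378), a high-affinity subunit that forms channels only with others, stood at 158, 117 and 135 CPM in WT, at 83.5, 86.1 and 69 CPM in Lmx1b+/- and at 111, 97 and 126 CPM in Lmx1b-/-. These were 1.87-fold and 1.68-fold differences from WT. Grik1 stood at 34.9, 46.2 and 41.3 CPM in WT, at 29.8, 26.1 and 31.3 CPM in Lmx1b+/- and at 32.7, 41 and 42.7 CPM in Lmx1b-/-. Grik4 stood at 17.9, 15.4 and 16.9 CPM in WT, at 14.6, 11.9 and 10.5 CPM in Lmx1b+/- and at 16.5, 15.5 and 17.7 CPM in Lmx1b-/-. In both the Lmx1b+/- libraries were below all others, by 1.37 and 1.33 times against WT. Grik2 was not called, at 71.9 to 91.5 CPM in Lmx1b+/- and 87.3 to 104 CPM in WT.

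Grid1, a delta receptor gene whose product organises synapses with cerebellins, stood at 39.8, 36.6 and 33.1 CPM in WT, at 25, 21.2 and 20.2 CPM in Lmx1b+/- and at 31.8, 30.8 and 32.9 CPM in Lmx1b-/-. The Lmx1b+/- libraries lay below all others, 1.61-fold under WT. Among the AMPA receptor genes Gria1 was called, 1.35-fold lower at 91.6, 68.3 and 64.5 CPM, where WT had 100, 99.1 and 109 CPM, with 93, 95 and 102 CPM in Lmx1b-/-. Gria2, Gria3 and Gria4 had log2 differences of -0.13, -0.11 and -0.09, with 95% intervals that reached no further than -0.42 and 0.17. Gria4, the AMPA receptor gene with the highest prenatal RPKM, stood at 119, 154 and 138 CPM in WT, at 129, 107 and 142 CPM in Lmx1b+/- and at 133, 154 and 149 CPM in Lmx1b-/-.

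The metabotropic glutamate receptors divided between a group that fell and a group that was not called. Grm4, a presynaptic receptor, stood at 40, 27.5 and 32.8 CPM in WT, at 14.8, 13.8 and 12.3 CPM in Lmx1b+/- and at 28.5, 24.1 and 34.5 CPM in Lmx1b-/-. The Lmx1b+/- libraries were 2.4-fold lower than WT (edgeR adjusted p = 6.37e-05). Grm2 stood at 16, 7.1 and 14.9 CPM in WT, at 5.94, 6.04 and 4.97 CPM in Lmx1b+/- and at 8.43, 8.97 and 13.3 CPM in Lmx1b-/-, with a wide spread in WT. Grm5, a postsynaptic receptor coupled to phospholipase C, stood at 206, 209 and 195 CPM in WT, compared with 266, 130 and 154 CPM in Lmx1b+/-, so that 1 heterozygous library lay above WT and the other 2 below. Grm3, a receptor of neurons and glia with the highest RPKM of its family, stood at 93.3, 110 and 71.9 CPM in WT, at 84.6, 44.2 and 76 CPM in Lmx1b+/- and at 76.3, 89.8 and 76 CPM in Lmx1b-/-, with all groups overlapping. Grm3, Grm7 and Grm8 were not called, and Grm6 was not tested.

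Gabrg3, a γ subunit of GABA-A receptors, was lower. It stood at 17.8, 24.5 and 18.8 CPM in WT, at 15.4, 11 and 11.5 CPM in Lmx1b+/- and at 20.9, 20.8 and 21.5 CPM in Lmx1b-/-, a 1.58-fold difference between the first of these groups. Gabra2 had a log2 difference of 0.07 (95% interval -0.15 to 0.28) and was not called. It stood at 76.7, 70.4 and 79.3 CPM in Lmx1b+/- and at 76, 82.4 and 83.5 CPM in Lmx1b-/-. Gabra3 stood at 105, 110 and 114 CPM in WT, at 127, 98.2 and 141 CPM in Lmx1b+/- and at 107, 129 and 121 CPM in Lmx1b-/-. The libraries of the 3 genotypes overlapped.

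The glycine receptor α genes moved in opposite directions. Glra2 (ENSMUSG00000018589) stood at 74.3, 69.2 and 71.9 CPM in WT, at 99.2, 89 and 117 CPM in Lmx1b+/- and at 83.8, 90.3 and 82.8 CPM in Lmx1b-/-. Every heterozygous and every null value lay above WT, and the heterozygous difference was 1.44-fold (log2 0.53 ± 0.10, edgeR adjusted p = 0.00127). Glra1 (ENSMUSG00000000263) stood at 4.2, 7.88 and 2.45 CPM in WT, at 1.87, 2.07 and 2.54 CPM in Lmx1b+/- and at 4.63, 4.5 and 3.69 CPM in Lmx1b-/-. Lmx1b+/- 3 overlapped WT 3, and the 2.17-fold difference had a wide 95% interval on the log2 scale, from -1.84 to -0.40, and was not called without WT 2 (log2 -0.57, edgeR adjusted p = 0.101). The share of Glra2 in the glycine receptor α RPKM was 92.8 to 93% in Lmx1b+/-, 80.8 to 90% in WT and 87.4 to 88.2% in Lmx1b-/-. Glrb stood at 57.8, 72.7 and 61 CPM in WT, at 53.1, 52 and 62.5 CPM in Lmx1b+/- and at 67.9, 84 and 73.6 CPM in Lmx1b-/-.

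Other measures moved with the heterozygous genotype. Mitochondrially encoded genes took up 9.58 to 14.7% of the counts in Lmx1b+/-, against 5.57 to 6.74% in WT and 7.23 to 7.98% in Lmx1b-/-. The 5 erythroid markers summed to 3205 to 6986 CPM, against 478 to 1171 CPM in WT and 974 to 2195 CPM in Lmx1b-/-, and all 5 were called higher. Of the 7 oligodendrocyte markers 6 were lower, with sums of 151 to 203 CPM against 232 to 276 CPM, and of the 7 astrocyte markers 4 were lower. The 10 pan-neuronal markers, at 5116 to 6075 CPM in Lmx1b+/- and 5028 to 5553 CPM in WT, were called higher in 2 genes and lower in 2. Within the WT group, the most abundant gene took up 4.56% of the counts in WT 3 and 18.4 to 21.9% in the other 2 libraries. Markers of brain regions moved as well. Of the 8 hindbrain markers 5 were higher and 0 lower (median log2 difference 0.81), with sums of 201 to 563 CPM in Lmx1b+/- against 119 to 250 CPM in WT and 173 to 237 CPM in Lmx1b-/-. Of the 7 tested markers of cerebellar granule and Purkinje cells 4 were lower and 0 higher (median log2 difference -0.65), with sums of 250 to 324 CPM against 353 to 440 CPM in WT and 274 to 325 CPM in Lmx1b-/-. Of 6 tested forebrain markers 1 was higher and 0 lower (median log2 difference 1.53). Their sums were 30.8 to 43.4 CPM against 24.1 to 25.6 CPM in WT and 29.8 to 55.9 CPM in Lmx1b-/-. The 5 choroid plexus markers, 1 of them called higher, varied within groups. They summed to 77.8, 1453 and 874 CPM, against 351, 210 and 308 CPM in WT and 1171, 660 and 108 CPM in Lmx1b-/-. Among 7 tested skeletal muscle markers 3 were higher, with sums of 18.3 to 19.2 CPM against 11.1 to 13.9 CPM in WT. The part of these measures in the receptor differences was not tested. Without WT 3 the counts were 17 lower and 2 higher. Gria1, Grin3a and Grik4 were among the calls lost without it, Grik4 and Gria1 were also lost without Lmx1b+/- 2 or Lmx1b+/- 3, Grik4 without WT 1, and Grik1 without WT 2 or Lmx1b+/- 2.

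Loss of both copies of Lmx1b was compared with WT in the same fit. No receptor gene was called. With edgeR 0 of the 46 members passed in either direction, 4 had an unadjusted p under 0.05, and DESeq2 also called 0 with 5 at an unadjusted p under 0.05. Among all genes tested 0% were higher and 0.0184% lower, which is 4 genes, and 8.09% (1757 of 21729) had an unadjusted p under 0.05, so the 4 members are near the background share and no difference is read from them. They were Glra2, Gabrg1, Glra3 and Glrb, all with higher means in Lmx1b-/- by 1.22, 1.26, 1.24 and 1.2 times, and with edgeR adjusted p of 0.544, 0.59, 0.604 and 0.604. Of these, Glra2 and Gabrg1 did not overlap WT. Over all members the groups did not overlap for 4 below WT and 2 above it, against 7.74% below and 9.84% above over all genes tested, which is near the background. Gabrg1, a γ subunit also known from glia, stood at 39.5, 31.7 and 34.3 CPM in WT, at 36.8, 38.7 and 56.4 CPM in Lmx1b+/- and at 45, 43.2 and 42.7 CPM in Lmx1b-/-. The intervals bound what could have been missed: for Grin1 the log2 difference was -0.11 with a 95% interval of -0.38 to 0.15, for Gabbr2 -0.13 (-0.34 to 0.08) and for Gabbr1 0.03 (-0.20 to 0.27). Over the members the median log2 difference was -0.04.

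The 2 mutant genotypes were also compared with each other. This comparison shares the Lmx1b+/- libraries with the comparison of Lmx1b+/- and WT, so the values of both are not independent. Of the 46 members 21 were higher in Lmx1b-/- than in Lmx1b+/- and 0 were lower, against 11.5% higher and 14.0% lower over all genes tested. At an unadjusted p under 0.05 there were 28, against 36.8% of all genes tested. Without Lmx1b-/- 3, 13 members were called. Gabbr2 was 1.96-fold higher (log2 0.97 ± 0.10, edgeR adjusted p = 4.13e-05), Grin2d 2.19-fold (log2 1.13 ± 0.15, edgeR adjusted p = 0.000183) and Grin1 1.83-fold (log2 0.87 ± 0.13, edgeR adjusted p = 0.000324). For these 3 genes the log2 difference of Lmx1b+/- from WT was -1.10, -1.32 and -0.99. Grm4 was 2.13-fold higher in Lmx1b-/-, Grin2a 1.76-fold, Grin2b 1.69-fold and Grik3 1.64-fold. Glrb, called in this comparison and in no other of the Lmx1b genotypes, was 1.34-fold higher (edgeR adjusted p = 0.0165). Removing a trend of each library with gene length left 10 members higher and 1 lower in Lmx1b-/-.

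The bases before the transcription start were read for the members that moved. RefSeq promoter windows on GRCm38.p6 were at hand for 36 of the 52 members, and the 250 bases before each start were used. The authors' build is GRCm39, so these positions are those of the reference and not of the count tables. Shown are Grin1 and Grik5, which were lower in Lmx1b+/- and, as described further on, in AMPKα2-/-, Glra2, which was higher in Lmx1b+/-, and Gabrg1, which was higher in AMPKα2-/-. Capitals mark CG dinucleotides and the letters TAATTA, the palindromic core of many homeodomain sites, and each sequence runs 5′ to 3′ on the minus strand. In the Gabrg1 window a further TAATTA, which overlaps the end of the marked letters, is not marked.
Grin1, chr2:25319188-25319437: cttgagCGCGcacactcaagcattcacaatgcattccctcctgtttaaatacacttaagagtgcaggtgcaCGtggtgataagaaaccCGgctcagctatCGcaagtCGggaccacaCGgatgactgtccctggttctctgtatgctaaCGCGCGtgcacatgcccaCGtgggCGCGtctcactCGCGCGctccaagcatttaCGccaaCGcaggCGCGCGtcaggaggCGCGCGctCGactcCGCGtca
Grik5, chr7:25072370-25072619: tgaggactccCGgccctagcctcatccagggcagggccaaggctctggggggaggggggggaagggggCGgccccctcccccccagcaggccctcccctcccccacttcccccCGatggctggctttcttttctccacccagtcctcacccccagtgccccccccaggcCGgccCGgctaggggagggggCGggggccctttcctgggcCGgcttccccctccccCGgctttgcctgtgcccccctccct
Glra2, chrX:165327394-165327643: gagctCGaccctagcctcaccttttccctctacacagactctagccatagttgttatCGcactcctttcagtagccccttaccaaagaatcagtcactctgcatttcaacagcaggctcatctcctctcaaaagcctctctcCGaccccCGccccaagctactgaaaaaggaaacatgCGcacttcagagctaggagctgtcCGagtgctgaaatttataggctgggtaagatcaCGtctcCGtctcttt
Gabrg1, chr5:70842618-70842867: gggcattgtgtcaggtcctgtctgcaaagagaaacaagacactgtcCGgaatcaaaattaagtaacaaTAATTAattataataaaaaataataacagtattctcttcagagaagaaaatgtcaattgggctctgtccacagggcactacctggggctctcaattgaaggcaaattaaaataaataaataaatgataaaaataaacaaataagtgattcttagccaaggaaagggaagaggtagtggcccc

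Grin1 held 27 CG dinucleotides in this window, Grik5 and Glra2 8 each and Gabrg1 1. Over 32851 windows of all genes the median was 6. The 10 members that were lower in Lmx1b+/- and had a window held a median of 16, with a range of 8 to 42, and the 20 members that were tested and not called held a median of 8 over 27 windows. TAATTA was found in 1 of the 43 windows of the members, that of Gabrg1, and in 4.84% of all windows. It was in 0 of the 10 windows of members lower in Lmx1b+/-. A match of letters is a description of this window and no evidence of binding.

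AMPKα2-/- was compared with WT littermates to ask which receptor genes differed in neonatal brainstem. Grin1, Grin2b and Grin2d, Grik5, Grm4 and Glra1 were lower in AMPKα2-/-, and Gabrg1 was higher. Of the 47 members tested, 6 were lower, 1 was higher and 40 were not called, and 16 had an unadjusted p under 0.05. Over all 17397 genes tested, 5.17% were lower and 3.77% higher, and 4272 genes (24.6%) had an unadjusted p under 0.05. All 7 NMDA receptor genes had a negative log2 difference, and 3 of them were called. Of the 14 GABA-A genes tested 11 had a positive log2 difference and 1 was called, a split that became 7 and 7 with library size alone, which moved the median of all genes to -0.18. The groups did not overlap for 5 members below WT and 4 above it, against 12.7% below and 13.2% above over all genes tested, so these counts are near the background. The median log2 difference was -0.79 over the NMDA receptor genes, 0.19 over the GABA-A genes and -0.01 over all genes.

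Grik5 stood at 59.1, 56.1 and 62.3 CPM in WT, compared with 31.9, 31.8 and 12.7 CPM in AMPKα2-/-. The WT libraries lay close together and all above AMPKα2-/-, a 2.03-fold difference (log2 -1.02 ± 0.21, 95% interval -1.45 to -0.59, edgeR adjusted p = 0.00429). The 12.7 CPM in the shallow AMPKα2-/- 3 rest on 4 counts. Grin1 stood at 145, 138 and 171 CPM in WT, compared with 83.4, 107 and 63.3 CPM in AMPKα2-/-, a 1.73-fold difference without overlap (log2 -0.79 ± 0.18, edgeR adjusted p = 0.0083). Grin2d stood at 16.9, 15 and 23.4 CPM against 9.52, 9.49 and 6.33 CPM, also without overlap (2.14-fold, edgeR adjusted p = 0.0146), although the shallow libraries rest on 4 and 2 counts here. Grin2b stood at 50.9, 71.1 and 98.6 CPM in WT, compared with 32.9, 52.4 and 28.5 CPM in AMPKα2-/-, with AMPKα2-/- 2 slightly above WT 1. Grm4 stood at 22.3, 11.2 and 32.1 CPM against 11.7, 16.1 and 9.5 CPM, where the groups overlapped. Glra1 stood at 20.5, 29.9 and 93.5 CPM in WT, compared with 11, 21.8 and 6.33 CPM in AMPKα2-/-, the last on 2 counts. Its 3.46-fold difference (log2 -1.79 ± 0.40, edgeR adjusted p = 0.00803) was decided by WT 3, the library with the muscle markers and the Gabra6 counts, and without it the log2 difference was -0.46 (edgeR adjusted p = 0.516).

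**Figure D4:**
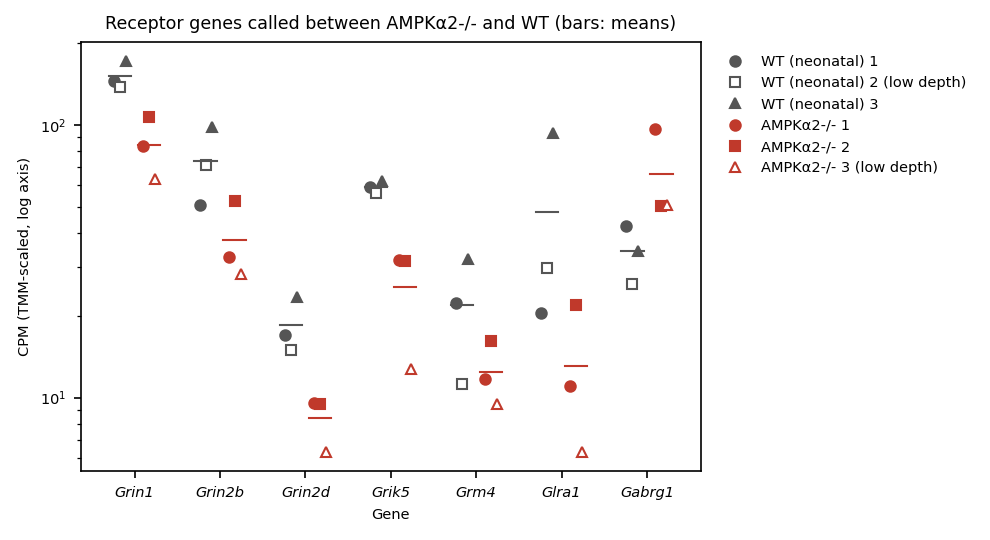
CPM (log axis) of the 7 receptor genes called between AMPKα2-/- and WT in each of the 6 neonatal libraries, with the mean of each group as a bar and the 2 shallow libraries as open symbols. The groups are apart for Grin1, Grin2d, Grik5 and Gabrg1, and Glra1 in WT 3 lies at 93.5 CPM against 20.5 and 29.9 CPM in the other WT libraries.

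Gabrg1 (ENSMUSG00000001260) stood at 42.7, 26.2 and 34.4 CPM in WT, compared with 96.9, 50.5 and 50.7 CPM in AMPKα2-/-. All AMPKα2-/- libraries were above WT and AMPKα2-/- 1 was the highest, with a 1.87-fold difference (log2 0.91 ± 0.24, edgeR adjusted p = 0.019) that was 0.47 on the log2 scale without that library (edgeR adjusted p = 0.383). It also lost its call without WT 2 or WT 3. Glra2, Gabrq and Gabre also had no overlap between groups. For Gabre this rested on a count of 0 in the shallow WT 2, which allows up to 11.2 CPM, and AMPKα2-/- 3 held 2 counts. Glra2 stood at 9.41, 0 and 8.93 CPM in WT, compared with 15.4, 16.2 and 28.5 CPM in AMPKα2-/- (log2 0.97 ± 0.32, edgeR adjusted p = 0.0592). Of the glycine receptor α RPKM, Glra2 made up 41.8, 24.4 and 59.9% in AMPKα2-/- and 18.5, 0 and 6.21% in WT. The 59.9% and 0% are those of the shallow libraries, with 9 and 0 Glra2 counts. Gabrq stood at 12.8, 11.2 and 9.58 CPM against 23.6, 17 and 15.8 CPM (edgeR adjusted p = 0.0594). Gabra2 stood at 39.6, 41.2 and 41.4 CPM in WT, compared with 47.2, 46.8 and 28.5 CPM in AMPKα2-/-, where the groups overlapped and the gene was not called.

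Among the members with obligate or shared roles, Gabbr1 stood at 436, 494 and 454 CPM in WT, compared with 389, 397 and 361 CPM in AMPKα2-/-, without overlap but with a log2 difference of only -0.24 (95% interval -0.57 to 0.08). Gabbr2 stood at 114, 93.6 and 135 CPM and at 74.6, 99 and 60.2 CPM (edgeR adjusted p = 0.0695). Glrb stood at 379, 359 and 299 CPM and at 410, 419 and 348 CPM. The groups overlapped for Gabbr2 and Glrb, and none of these genes was called. Of the members leading their families by RPKM, Gria1 stood at 148, 195 and 154 CPM and at 146, 233 and 174 CPM, Gabra3 at 114, 82.3 and 102 CPM and at 74.7, 151 and 72.8 CPM, Grm3 at 31.7, 52.4 and 42.7 CPM and at 33.4, 37.2 and 38 CPM, and Grid1 at 26.1, 11.2 and 37.7 CPM and at 22.7, 26.8 and 22.2 CPM. No AMPA or GABA-B receptor gene was called.

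The AMPK calls moved with the choice of libraries. There were 2 calls without WT 3, 4 without AMPKα2-/- 1, 3 without AMPKα2-/- 3, 13 without AMPKα2-/- 2 and 15 without WT 1. With the 4 deeper libraries alone edgeR called 0 members, with 14 at an unadjusted p under 0.05, and the log2 differences of Grik5, Grin1 and Grin2d were -0.95, -0.75 and -1.10 there. Grik5 kept its call in all 6 fits without 1 library, and Grin1 lost it without AMPKα2-/- 3 (edgeR adjusted p = 0.0553). Grin2d lost its call without WT 3 or AMPKα2-/- 1, Grm4 and Grin2b without WT 3, AMPKα2-/- 1 or AMPKα2-/- 3, Grin2b also without WT 2, and Glra1 without WT 3 or AMPKα2-/- 3. Without WT 3 the log2 differences of Grin2b and Grm4 were -0.41 and -0.59. Mitochondrially encoded genes took up 20 to 21.7% of the counts in AMPKα2-/- and 10.4 to 13.9% in WT. Of the 10 pan-neuronal markers 4 were higher and 1 lower, with sums of 6459 to 7150 CPM against 5287 to 6330 CPM. Markers of regions and other tissue varied between libraries too. The 5 choroid plexus markers summed to 65.3, 38.6 and 127 CPM in AMPKα2-/- against 11.7, 15 and 14.5 CPM in WT. The 8 hindbrain markers summed to 51.3, 183 and 91.8 CPM against 226, 168 and 118 CPM, and 0 of them were called. Tph2, a gene of serotonergic neurons, stood at 152, 4.19 and 72.8 CPM in AMPKα2-/- against 3.14, 7.48 and 0.782 CPM in WT. Slc6a4, another such gene, stood at 79.6, 1.72 and 41.2 CPM against 0.523, 18.7 and 0.978 CPM. For both genes AMPKα2-/- 1 and 3 were high, while AMPKα2-/- 2 lay within the WT range. The part of these measures in the receptor differences was not tested.

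GC content varied with the log2 differences in both experiments. The 20 members lower in Lmx1b+/- had a median GC content of 52.4% (42.9 to 65%), against 42.4% for the 24 not called and 39.9% for the 2 that were higher. In the AMPK experiment the 6 members lower in AMPKα2-/- had a median of 60.5%, against 46.1% for the 40 not called. Among all genes tested, the 10% with the lowest GC content had a median log2 difference of 0.23 in Lmx1b+/- and 0.17 in AMPKα2-/-, and the 10% with the highest GC content -0.29 and -0.43. With a trend on GC content removed from each library, 30 members were lower and 1 higher in Lmx1b+/-, and 2 were lower and 0 higher in AMPKα2-/-. The members were also long, at a median of 6.45 kb in the Lmx1b fit against 3.43 kb over all genes tested. Not counting fits without 1 library, the other settings, a length trend among them, gave 15 to 31 calls in Lmx1b+/-.

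**Figure D5:**
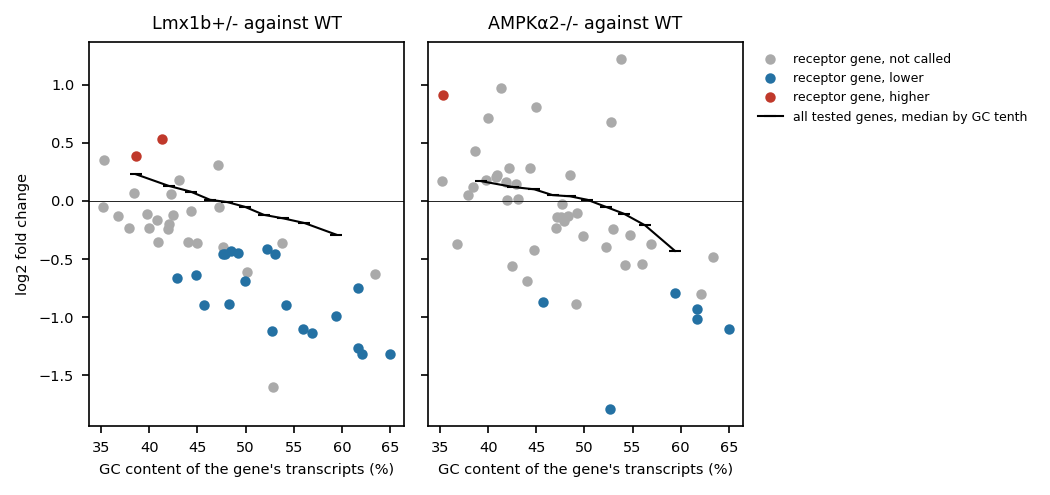
GC content of each tested receptor gene's transcripts (x axis, %) against its log2 fold change (y axis) in Lmx1b+/- against WT and in AMPKα2-/- against WT, with the median over all tested genes in 10 equal classes of GC content as a line. The members called lower lie mostly to the right and below the line, and the line itself falls from 0.23 to -0.29 and from 0.17 to -0.43.

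The partners of the receptors were read from 4 lists in the same fits. In Lmx1b+/- 14 of 26 genes that traffic or anchor glutamate receptors were lower and 0 higher (median log2 difference -0.39), against 17.3% lower and 19.4% higher over all genes tested (median log2 difference -0.03). Among the 14 were Shisa9 (log2 -0.94), which modulates AMPA receptors, Dlg4 (log2 -0.58), the scaffold PSD-95, and Homer2 (log2 -0.61). Of 12 tested genes that anchor or traffic GABA and glycine receptors 5 were lower and 2 higher. Nlgn2 (log2 -0.86), the adhesion molecule of inhibitory synapses, was lower, and Gphn (log2 0.30), the gephyrin scaffold, and Gabarap (log2 0.91) were higher. Of 19 genes for making, loading and taking up these transmitters 15 were lower and 0 higher, among them Gad1 (log2 -0.49), Gad2 (log2 -0.57) and Slc32a1 (log2 -0.73), the vesicular transporter for GABA and glycine. Slc12a5, the chloride extruder KCC2 that sets the sign of inhibition, was lower at a mean of 88.6 CPM against 190 CPM (log2 -1.07 ± 0.14, edgeR adjusted p = 9.4e-05). In Lmx1b-/- against WT 0 genes of these 4 lists were called.

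In AMPKα2-/-, where 5.17% of all genes tested were lower and 3.77% higher, 2 of 26 glutamate receptor partners were lower, Grip2 (log2 -1.29) and Cacng4 (log2 -0.76), and 0 were higher, a count near the background. Of the 12 tested GABA and glycine receptor partners 2 were lower, Nlgn2 (log2 -0.65) and Insyn1 (log2 -0.62), and 1 was higher, Gabarap (log2 0.75). Of the 19 genes for making, loading and taking up the transmitters 2 were lower and 1 higher. Slc17a7, the vesicular glutamate transporter VGLUT1, stood at a mean of 10.9 CPM in AMPKα2-/- against 95.3 CPM in WT (log2 -3.15 ± 0.25, edgeR adjusted p = 7.89e-08). Slc6a9, a glycine transporter, was lower (log2 -0.93) and Slc6a13 higher (log2 1.70). Slc12a5 was lower at a mean of 226 CPM against 410 CPM (log2 -0.85 ± 0.18, edgeR adjusted p = 0.0047), whereas Slc12a2, the chloride importer NKCC1, was not called (log2 -0.18). Between the WT groups both chloride transporters were higher in neonatal WT, Slc12a2 with a log2 difference of 2.43 and Slc12a5 of 1.08.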

How the data were processed

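The authors deposited gene tables of 15 RNA-seq libraries, with raw read counts and RPKM per Ensembl gene identifier. Per the labels and the study's methods, reads of a directional kit were aligned with HISAT2 to GRCm39. The counter, annotation, strand setting and use of molecular indexes are not given in the sources used here, so overlapping genes may share reads. Symbols came from a reference table and matched 51884 of 57180 identifiers.

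Counts were tested with edgeR 4.0.16 (filterByExpr, TMM, quasi-likelihood, Benjamini-Hochberg over all tested genes, adjusted p under 0.05), in R 4.3.3, with a fit of 6 libraries for AMPK, of 9 for Lmx1b and of the 6 WT libraries across experiments. Printed CPM use TMM over the 15 libraries, so their ratio can differ slightly from a fitted fold change. Deposited RPKM gave gene lengths and entered limma 3.58.1 as log2(RPKM + 1). DESeq2 1.42.0, other scalings and filters, the replicate block, length and GC trends and left-out libraries were alternatives. The scripts were tested on simulated data. An edgeR SE is the log2 difference divided by the root of F.

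The members and lists were chosen with earlier results of these data known. Values by library were given for members called between genotypes, the highest-RPKM member of each family, shared subunits, the pairs Grin2b and Grin2a, Glra2 and Glra1, and Gabra2 and Gabra6, except for some genes that are not reported here and are counted only in totals. Those of Glra3, Gria2, Grm5, Gabrd and Gabrq were added after their values were seen.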

Additional observations from a re-analysis of the deposited data

How the results depend on the processing

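Members called in AMPKα2-/- numbered 7. DESeq2 called 3, a minimum of 10 counts in every library 2 (17 members tested), limma 0 (9 at an unadjusted p under 0.05), a GC trend 2, GC and length trends 2, and the 4 deeper libraries 0 (14 at an unadjusted p under 0.05). Leaving out 1 library gave 2 to 15. Between the mutants, in place of 21 higher in Lmx1b-/-, removing a length trend gave 11 calls (10 higher, 1 lower) and GC and length trends 12 (11 higher, 1 lower), and leaving out 1 library gave 13 to 21. Between the WT groups, in place of 29 calls, a minimum of 10 counts in every library gave 19 with 23 tested, and leaving out 1 library gave 29 to 33. The 22 calls in Lmx1b+/- stayed between 15 and 31 under the other settings and between 19 and 25 without 1 library, and Lmx1b-/- against WT had 0 under each setting run. GC trends and the 13 deeper libraries were chosen after seeing the data. No called gene changed direction. The genes called under every setting numbered 0 of 7 in AMPKα2-/-, 11 of 22 in Lmx1b+/-, 10 of 21 between the mutants and 17 of 29 between the WT groups. Apart from settings that test fewer genes or fewer libraries, the cause was not tested.

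Same-numbered libraries deviated together with correlations of -0.121 to 0.0488 (AMPK) and -0.175 to 0.147 (Lmx1b). Libraries of different number had -0.0958 to 0.121 (AMPK) and -0.114 to 0.236 (Lmx1b). The ranges overlapped, so no pairing by number was seen, but 3 libraries per group are too few to exclude it. With the replicate number as a block the calls were 8, 22, 0, 20 and 27, for AMPKα2-/-, Lmx1b+/-, Lmx1b-/- against WT, Lmx1b-/- against Lmx1b+/- and the WT groups. In the 2 shallow libraries, neonatal WT 2 and AMPKα2-/- 3, a gene without counts could still lie anywhere below 11.2 and 9.5 CPM. Some genes were detected below these values, such as Grin2d at 6.33 CPM in AMPKα2-/- 3.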
